A study of Mus musculus with 18 samples.

Results

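The genes described here encode the subunits of the oxidative phosphorylation system, together with the complex I assembly factors that carry Nduf symbols. They were chosen by symbol: protein-coding genes named Nduf, Sdha to Sdhd, Uqcr, Cox4 to Cox8, Atp5 or mt- in GENCODE M21, with a mean of at least 5 CPM (counts scaled to a common library size) in at least 1 group. Of 55536 gene IDs counted, 107 genes matched these names and 100 reached the limit. Of the 100 members, 89 are nuclear genes and 11 are encoded by the mitochondrial genome. The nuclear genes divide into 36 of complex I, 8 complex I assembly factors, 4 of complex II, 8 of complex III, 16 of complex IV (with Ndufa4, which carries a complex I name) and 17 of complex V. The 7 matching genes under the limit were a second Atp5o entry and Cox8b, both with a highest group mean of 0, Cox8c at 0.384 CPM, Cox7b2 at 0.556, Ndufa4l2 at 1.21, mt-Nd3 at 1.47 and mt-Nd4l at 2.83. The members just over it were Cox7a1 at 5.20 CPM, which passed in 1 group only, Ndufaf2 at 6.40 and Cox4i2 at 6.81, and 92 members reached the limit in all 6 groups.

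RNA was measured by poly(A) RNA-seq in bone marrow of BALB/c mice after 4 days of culture. Marrow from wild-type (WT) mice or from mice labelled Cysltr1-/-, a genotype named for a receptor of cysteinyl leukotrienes, was grown in 3 ways. All cultures received GM-CSF at 40 ng/mL, a cytokine that drives myeloid differentiation. The first kind had GM-CSF alone, the second had IL-6 added at 40 ng/mL, and the third had 50% by volume of medium conditioned for 24 h by EMT6, a mouse mammary carcinoma line. This gives 6 groups of 3 samples, and each sample is a pool of 3 mice, so that the p-values below measure the spread between pools.

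Oxidative phosphorylation takes place in the inner mitochondrial membrane. Complexes I and II pass electrons from NADH and succinate to ubiquinone, complex III passes them to cytochrome c and complex IV to oxygen, while complexes I, III and IV pump protons that complex V uses to make ATP. Complex II is built from nuclear genes alone. The other complexes combine nuclear subunits with a core set encoded in the mitochondrial genome, which is transcribed as long polycistronic RNAs inside the organelle and also encodes 2 rRNAs. Resting myeloid cells can take much of their ATP from glycolysis, and the respiratory chain also serves redox balance and succinate oxidation in them.

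The libraries held 9583728 to 31989342 counts in genes. The share of reads that fell in no annotated gene averaged 14.2% in WT GM-CSF, 14.5% in WT IL-6 and 36.2% in WT EMT6-medium libraries, and 17.6%, 19.5% and 50.2% in the same cultures labelled Cysltr1-/-. The level of reads expected from this background made up a median of 1.03% of a member's CPM in WT EMT6-medium and 2.28% in Cysltr1-/- EMT6-medium libraries, and exceeded 50% only for Ndufaf4 in the latter. All 9 defining myeloid markers were at 1 CPM or more in every group. Their summed CPM was 10424 to 10725 in WT GM-CSF, 7801 to 8166 in WT EMT6-medium and 4869 to 5352 in Cysltr1-/- EMT6-medium libraries. The 10 neutrophil markers summed to 11076 to 12214 CPM in WT GM-CSF, 8067 to 8149 with IL-6 and 4817 to 5129 with EMT6 medium, and to 5370 to 5562, 3645 to 3683 and 3246 to 3677 in the Cysltr1-/- cultures. The 7 dendritic cell markers summed to 7322 to 7951 CPM in WT GM-CSF and to 1356 to 1489 with EMT6 medium, and the 8 lymphoid markers to 256 to 265 and 880 to 935. The 8 eosinophil, basophil and mast cell markers summed to 588 to 671 CPM in WT GM-CSF, 416 to 435 with IL-6 and 1086 to 1180 with EMT6 medium, and to 210 to 226, 180 to 193 and 805 to 903 in labelled cultures, and the 9 monocyte and macrophage markers ranged from 1410 in labelled EMT6-medium to 2915 in WT IL-6 libraries. The 6 genes of an epithelial list, chosen to show carcinoma cells, summed to 700 to 729 CPM in WT GM-CSF, where Krt5 was at 0, and to 47.4 to 49.9 with EMT6 medium. The number of them at 1 CPM or more went the other way. It was 2 in WT GM-CSF and 4 with EMT6 medium, and 3 and 5 in labelled cultures, so the sum does not describe each gene. The 6 erythroid markers summed to at most 11.6 in any library. The part of these markers and of the background in the results on oxidative phosphorylation genes was not tested. Cysltr1 itself stood at 57.6 to 62.8 normalised CPM in WT GM-CSF libraries and at 75.2 to 78.7 in those labelled Cysltr1-/-, at 80.1 to 81.7 against 87.7 to 90.8 with IL-6 and at 3.92 to 4.19 against 6.20 to 9.13 with EMT6 medium. Its transcript was thus higher in the libraries labelled Cysltr1-/- in all 3 cultures, and a count over the whole gene does not show which part, if any, was deleted. Genotype differences below are therefore differences between libraries by their label.

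Per kilobase of exon, the highest members in WT GM-CSF cultures were mitochondrial. On the scale of normalised CPM per kilobase of exon (RPKM), mt-Co1, the catalytic core of complex IV, stood at 5232, mt-Cytb, the cytochrome b of complex III, at 2114 and mt-Nd1, a complex I core subunit, at 1685. On this scale the highest nuclear genes were Cox8a at 466, Cox6a1 at 421 and Cox4i1 at 309, all subunits of complex IV. Among the ATP synthase genes Atp5a1 followed at 280 and Atp5b at 238. The order depends on the length used, which joins all annotated exons of a gene: 0.619 kb for Cox8a and 4.237 kb for Atp5b. Before division by length and TMM scaling, Atp5b had a mean of 847 CPM and Cox8a 243. Levels of several mitochondrial genes cannot be read as their abundance, because their sequence recurs in mitochondrial insertions of chromosome 1 that the annotation lists as separate genes, and reads that map to more than 1 place were left uncounted. Of all 50-base windows of mt-Co2, 100% were found in another annotated transcript, with 99.9% for mt-Co3, 99.5% for mt-Atp6, 62.2% for mt-Nd4 and 51.1% for mt-Co1. The share was 8.19% for mt-Nd2 and 7.61% for mt-Nd5, and none was found for mt-Nd1, mt-Nd6, mt-Cytb and mt-Atp8. Over the 18 libraries mt-Co2 received 10515 counts and its copy Gm28661 47537, whereas mt-Co1 received 2417346. The first 60 coding bases of mt-Co2 (GRCm38 chrM:7013-7072, plus strand) recur without a change in Gm28661 (chr1:24615506-24615565, minus strand), while a stretch of mt-Co1 (chrM:5332-5391) and the start of mt-Cytb (chrM:14145-14204) recur in no other annotated transcript. They are shown because the counts of mt-Co2, mt-Co3 and mt-Atp6 come from few uniquely mapped reads. For mt-Cytb, mt-Nd1 and mt-Nd6 no window recurred in another annotated transcript, and copies outside annotated transcripts were not searched. mt-Co1 and mt-Nd4 are shared in part, and the sums and medians below include all 11 genes.
mt-Co2: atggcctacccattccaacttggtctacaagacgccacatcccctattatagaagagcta
mt-Co1: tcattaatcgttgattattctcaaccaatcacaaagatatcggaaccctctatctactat
mt-Cytb: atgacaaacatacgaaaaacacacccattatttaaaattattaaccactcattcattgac

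With EMT6 medium, the mitochondrial transcripts fell further than any class of nuclear subunit genes, and mt-Co1 fell least among them. mt-Co1 was at 8194, 8626 and 7432 normalised CPM (CPM after TMM scaling) in the WT GM-CSF replicates and at 5113, 4608 and 4209 with EMT6 medium. The 2 groups did not overlap, and the log2 fold change was -0.80 (SE 0.07, adjusted p = 1.13e-14, edgeR quasi-likelihood test with Benjamini-Hochberg adjustment over all genes tested, as for every adjusted p below). mt-Cytb went from 2541, 2547 and 2168 CPM to 159, 152 and 135, a log2 fold change of -4.02 (SE 0.11, adjusted p = 4.62e-32). Each EMT6-medium library was thus more than an order of magnitude below each GM-CSF library for mt-Cytb. mt-Nd1 went from 1693, 1644 and 1500 CPM to 259, 251 and 216 (log2 fold change -2.74, SE 0.08, adjusted p = 4.34e-31). The other complex I genes mt-Nd2, mt-Nd4 and mt-Nd5 changed by -2.92, -2.66 and -2.69 on the log2 scale, and mt-Nd6, which lies on the opposite strand, by -2.54. All 11 mitochondrial members fell in WT cultures, with a median of -2.69. With library sizes alone as the scaling, all 11 also fell, with a median of -2.20. In bulk RNA, fewer cells of a type and less RNA per cell cannot be told apart, here or in any result below.

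In cultures labelled Cysltr1-/- the mitochondrial members were lower with EMT6 medium as well. mt-Co1 was at 8280, 8005 and 8569 CPM with GM-CSF and at 2892, 3593 and 3707 with EMT6 medium (log2 fold change -1.29, SE 0.07, adjusted p = 1.12e-21). mt-Cytb went from 2758, 2621 and 2890 CPM to 171, 290 and 167 (log2 fold change -3.72, SE 0.11, adjusted p = 4.14e-31). Replicate 2 of the labelled EMT6-medium group was the highest of its group for mt-Cytb, yet still far under every GM-CSF library. All 11 members fell, with a median log2 fold change of -3.08, and all 11 fell with library sizes alone (median -2.47). The fall differed by label for 6 mitochondrial members, all larger in the cultures labelled Cysltr1-/-: the interaction term was -0.49 for mt-Co1 (SE 0.09, adjusted p = 5.16e-05), -0.45 for mt-Nd1, -0.65 for mt-Nd4, -0.57 for mt-Nd5, -0.54 for mt-Nd6 and -0.48 for mt-Atp6. The call of mt-Atp6 was lost with library sizes alone, and without WT GM-CSF replicate 3, WT EMT6-medium replicate 1 or 2, or labelled EMT6-medium replicate 1 (adjusted p = 0.0521 to 0.0826). For mt-Cytb it was +0.30 and did not pass (adjusted p = 0.11).

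The 2 mitochondrial rRNAs, which are not members, moved the other way. mt-Rnr1, the small rRNA, was 1.08 higher on the log2 scale with EMT6 medium in WT cultures (SE 0.06, adjusted p = 1.66e-20) and 0.95 higher in those labelled Cysltr1-/-. mt-Rnr2, the large rRNA, was 0.68 and 0.17 higher. The rRNAs took 0.135% of gene counts in WT GM-CSF, 0.111% with IL-6 and 0.344% with EMT6 medium, and 0.160%, 0.123% and 0.346% in the libraries labelled Cysltr1-/-.

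**Figure D1:**
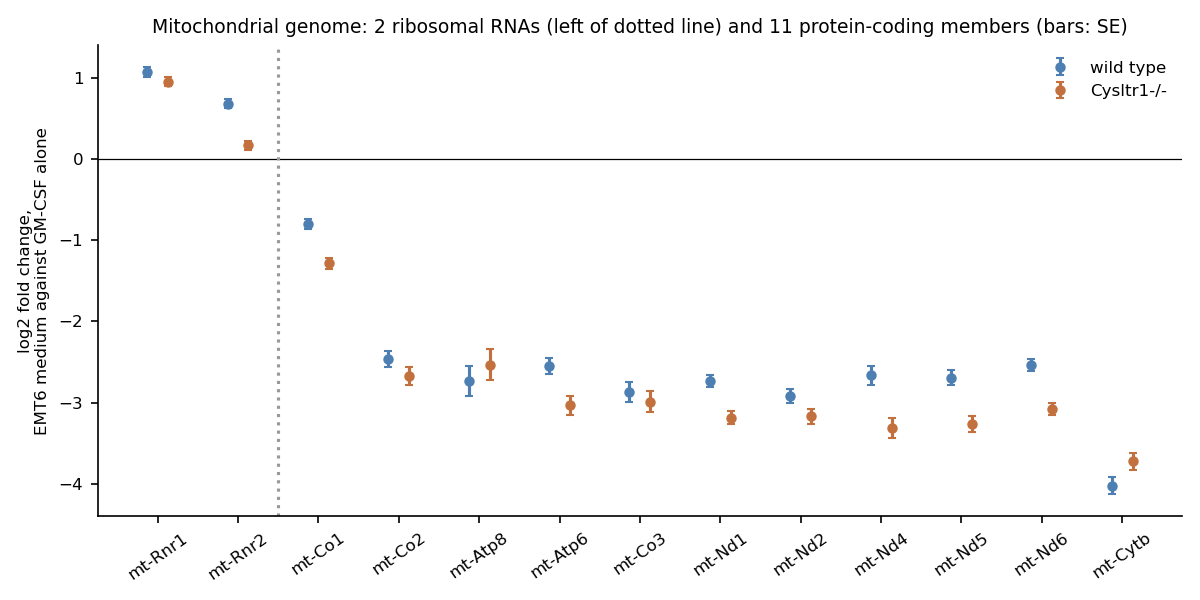
Log2 fold change with EMT6 medium against GM-CSF alone (vertical axis, error bars are the standard error) for the 2 mitochondrial rRNAs and the 11 mitochondrial members, with WT cultures and cultures labelled Cysltr1-/- as separate points. The rRNAs lie above 0, mt-Co1 lies at -0.80 and -1.29, and the other members lie at -2.46 or lower, with mt-Cytb the lowest.

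IL-6 shifted the mitochondrial genes far less. mt-Nd1 was at 1055, 1122 and 1060 CPM with IL-6 in WT cultures, all under the GM-CSF replicates, with a log2 fold change of -0.58 (SE 0.07, adjusted p = 1.58e-08). mt-Cytb was at 1818, 1918 and 1832 (log2 fold change -0.38, SE 0.09, adjusted p = 0.00169, but 0.134 with DESeq2). mt-Co1 at 7222, 7587 and 7241 overlapped the GM-CSF range and did not pass (-0.14, adjusted p = 0.146), and neither did mt-Nd5 (-0.04) nor mt-Atp8 (-0.33). In all, 8 of 11 fell in WT cultures and 8 of 11 in those labelled Cysltr1-/-, beside 19.8% and 16.4% of genes lower at 5 CPM. The counts were 5 and 7 with DESeq2, 7 and 6 with the background subtracted, and 10 and 11 without the EMT6-medium libraries. By label, mt-Nd6 was 0.24 higher under GM-CSF (SE 0.07, adjusted p = 0.00543) and 0.41 higher with IL-6 in the libraries labelled Cysltr1-/- (SE 0.07, adjusted p = 3.95e-06), with 654, 671 and 678 CPM against 575, 538 and 585 under GM-CSF. The call under GM-CSF was lost with DESeq2 (adjusted p = 0.0645) and without WT GM-CSF replicate 2 (adjusted p = 0.0676). With EMT6 medium mt-Co1 differed by label by -0.45 on the log2 scale (adjusted p = 2.8e-07). mt-Cytb differed by 0.49 (SE 0.10, adjusted p = 0.000107), which rests on labelled replicate 2: without it the difference was 0.073 (adjusted p = 0.374), and with DESeq2 it did not pass (adjusted p = 0.0767).

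Summed over members, mitochondrial genes took 1.36%, 1.37% and 1.22% of gene counts in the WT GM-CSF replicates, 1.10%, 1.13% and 1.13% with IL-6 and 0.711%, 0.667% and 0.606% with EMT6 medium. Nuclear members took 0.850%, 0.799% and 0.916%, then 0.679%, 0.689% and 0.699%, then 0.751%, 0.795% and 0.726%. With IL-6 both sums were thus lower in every library, while with EMT6 medium the nuclear sum of WT replicate 2 came close to the lowest GM-CSF replicate and the mitochondrial sum stood apart. In cultures labelled Cysltr1-/- the mitochondrial sums averaged 1.53% ± 0.0486 (SD, n = 3), 1.29% ± 0.0751 and 0.591% ± 0.0817, and the nuclear sums averaged 0.859%, 0.765% and 0.740%. The ratio of the mitochondrial to the nuclear sum, which does not depend on the scaling of libraries, was 1.55 in WT GM-CSF, 1.63 with IL-6 and 0.873 with EMT6 medium, and 1.78, 1.69 and 0.796 by the other label. The mean log2 ratio differed by 0.08 with IL-6 in WT cultures, within the pooled SD between replicates of 0.135, and by -0.82 with EMT6 medium, against 0.153. In the cultures labelled Cysltr1-/- it differed by -0.07 (SD 0.0752) with IL-6 and by -1.16 (SD 0.113) with EMT6 medium. Groups of 3 against 3 cannot give an exact permutation p under 0.10, so no test was made of the ratio. mt-Co1 weighs on it: it held 51.6% of mitochondrial member counts in WT GM-CSF and 83.2% in WT EMT6-medium libraries (49.7% and 80.6% by the other label). Without mt-Co1 the log2 ratio differed by -2.35 in WT and by -2.55 in labelled cultures.

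**Figure D2:**
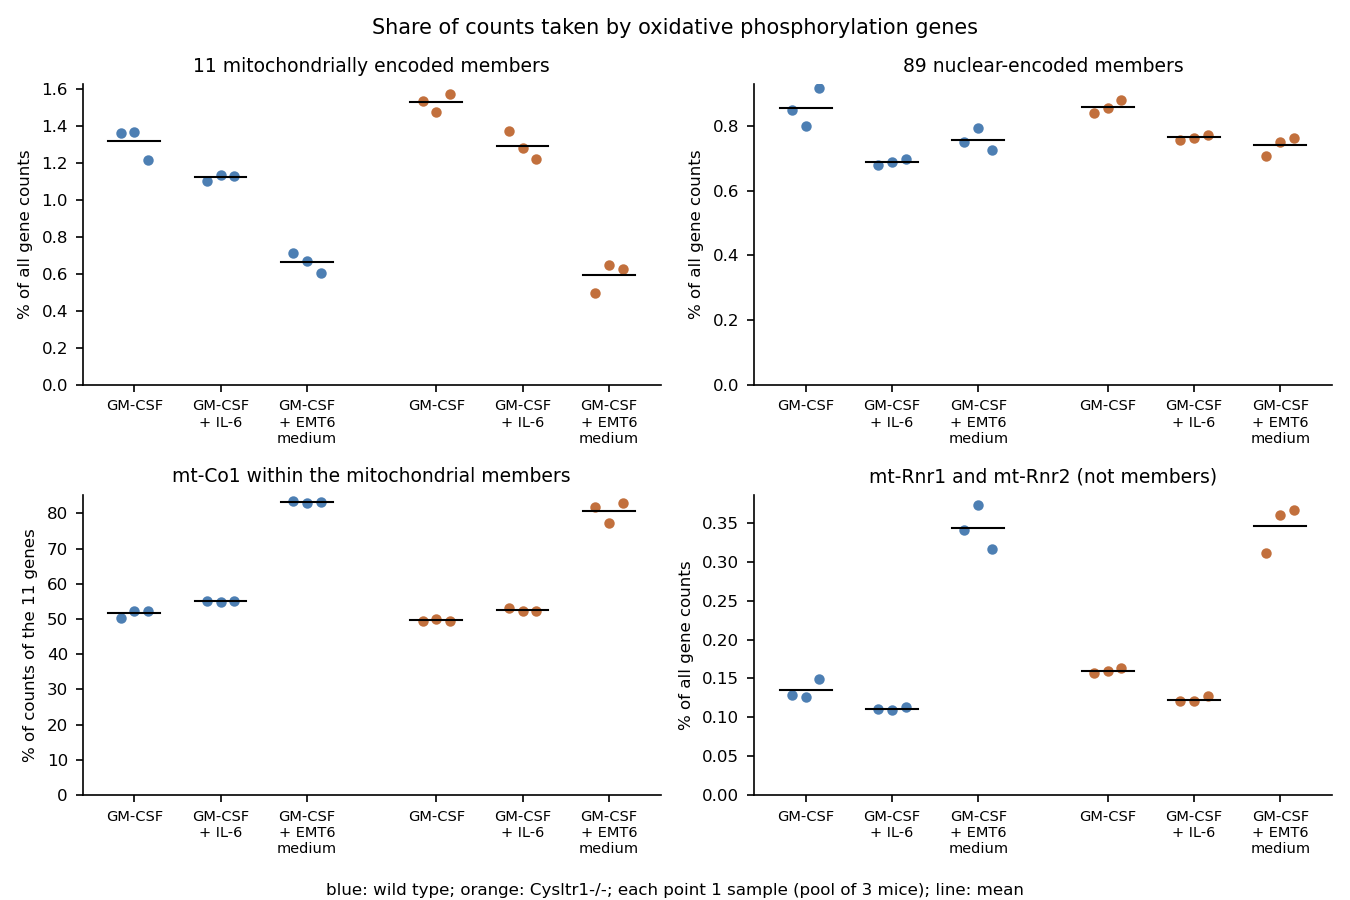
Percent of gene counts in mitochondrial members, in nuclear members and in mitochondrial rRNAs, and percent of mitochondrial member counts in mt-Co1, for each of the 18 samples (points) with group means (lines). The EMT6-medium samples are lowest for mitochondrial members (0.498% to 0.711%) and highest for mt-Co1 share and rRNA, and the nuclear sums span 0.679% to 0.916% over all samples.

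The counts of members that passed the test (adjusted p under 0.05) are read beside the share of genes called. With IL-6 in WT cultures 79 of 100 members fell and 1 rose, while 11.3% of the 28334 genes tested were lower and 10.4% higher, or 19.8% and 18.8% of the 14441 genes at 5 CPM or more. The median log2 fold change of the members was -0.33, against -0.03 for all genes and -0.01 for genes at 5 CPM. With IL-6 in cultures labelled Cysltr1-/- 57 fell and 0 rose by edgeR (0 higher also at an unadjusted p under 0.05 and by DESeq2), where 8.77% of genes were lower and 5.54% higher (16.4% and 9.49% at 5 CPM), with a median of -0.18 against 0.02 for all genes and -0.02 at 5 CPM. Of the members lower with IL-6, 52 were lower in both, which is 65.8% of the WT calls and 91.2% of the labelled calls. The count in labelled cultures depends on single libraries: 28 were lower without labelled GM-CSF replicate 3 and 40 to 49 without any of the other 5 libraries compared.

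With EMT6 medium most expressed genes were called. In WT cultures 84 members fell and 3 rose, beside 34.5% of all genes lower and 46.8% higher, or 58.4% and 31.7% at 5 CPM, and the nuclear members' median was -0.50 against -0.38 for genes at 5 CPM. In cultures labelled Cysltr1-/- 84 fell and 5 rose, beside 32.9% lower and 54.3% higher (56% and 35.1% at 5 CPM), with a nuclear median of -0.66 against -0.36. Of the lower members 78 were lower in both cultures, 92.9% of each. The nuclear result rests on the scaling: TMM factors were 0.818 to 0.942 without EMT6 medium and 1.16 to 1.41 with it, and with library sizes alone 26 nuclear members rose and 38 fell in WT cultures (median -0.01), and 31 rose and 39 fell in the labelled ones (median -0.05). Library sizes alone moved the median of all genes by 0.49 and 0.62 on the log2 scale in these comparisons.

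By label, 41 members were lower and 8 higher under GM-CSF in the libraries labelled Cysltr1-/-, beside 17.2% of genes lower and 10.1% higher (30.8% and 16.1% at 5 CPM), and the counts were 25 and 27 with library sizes alone. With IL-6 12 were lower and 14 higher, beside 18.4% and 12.1% (33.7% and 16.1% at 5 CPM), and 1 and 60 with library sizes alone, so that no direction is given for the set. With EMT6 medium 72 were lower and 5 higher, beside 19.8% and 32.3% (36.5% and 29.7% at 5 CPM), and 21 and 12 with library sizes alone. The interaction of label and IL-6 was called for 25 members, 24 above 0 and 1 under 0, where 2.92% of genes were called above 0 and 4.46% under 0 (5.25% and 8.59% at 5 CPM). All 25 are nuclear. The interaction of label and EMT6 medium was called for 42 members, 7 above 0 and 35 under 0, where 13.2% of genes were above and 12.3% under 0 (21.2% and 23.2% at 5 CPM).

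**Figure D3:**
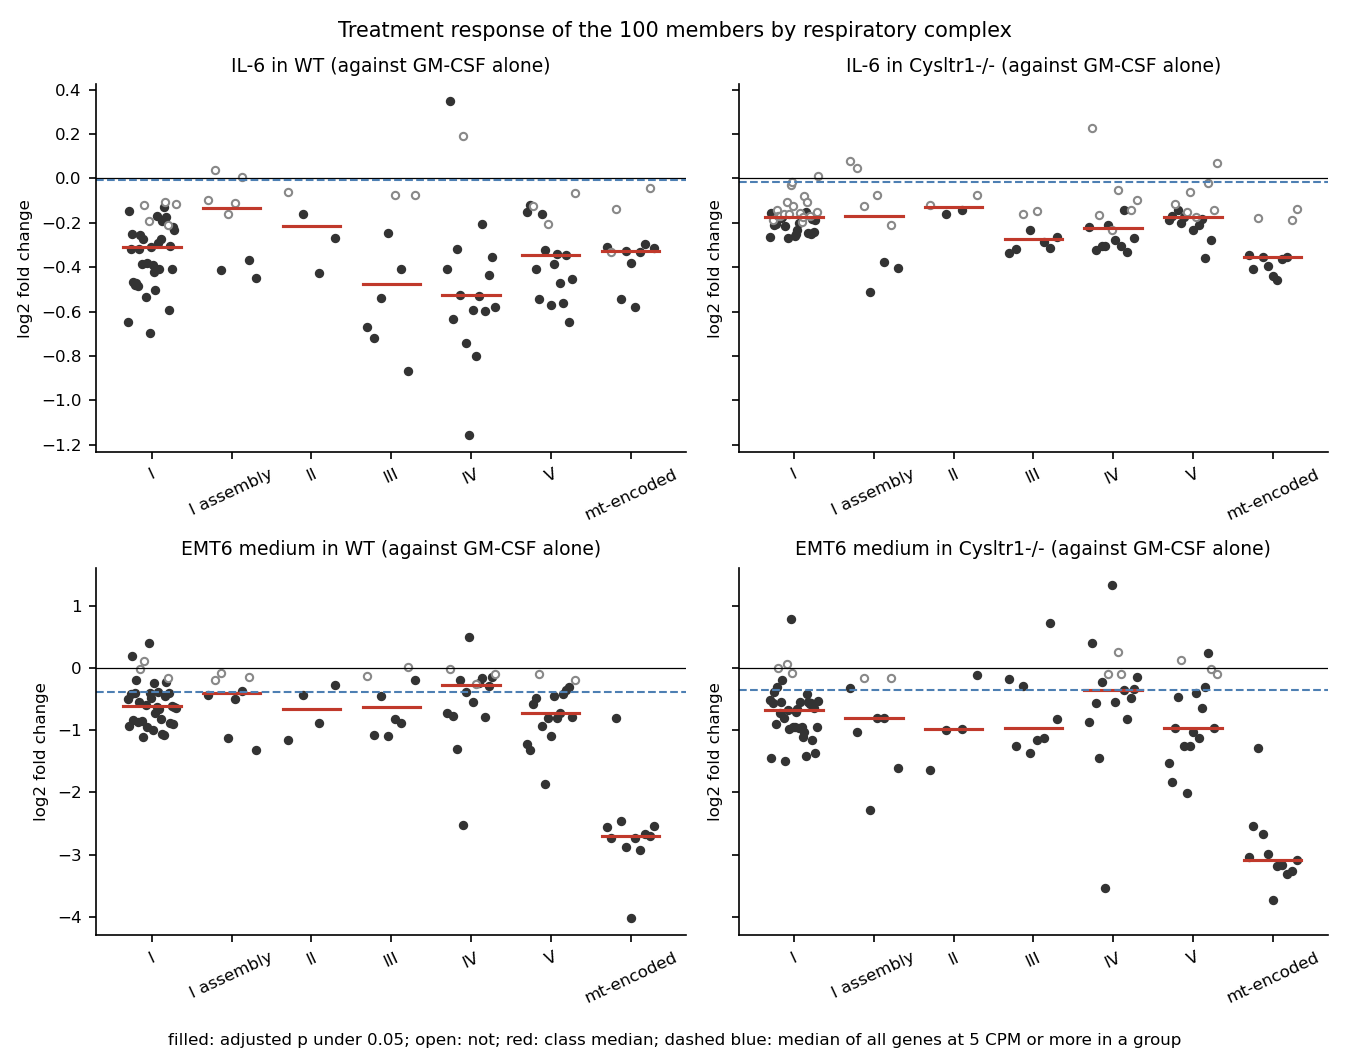
Log2 fold change of each member (points, filled where the adjusted p is under 0.05) by class in the 4 treatment comparisons, with the class median (red line) and the median of all genes at 5 CPM or more (dashed blue line). Every nuclear class median lies under the dashed line with IL-6 in WT cultures, and the mitochondrial class lies far under the nuclear classes with EMT6 medium.

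Complex I, the NADH dehydrogenase, had 31 of 36 members lower with IL-6 in WT cultures (median -0.31) and 18 of 36 in those labelled Cysltr1-/-. With EMT6 medium 31 fell and 2 rose in WT cultures (median -0.61), and 32 fell and 1 rose in the labelled ones. At 5 CPM, 58.4% of genes were lower and 31.7% higher with EMT6 medium in WT cultures, and 56% and 35.1% in labelled ones. With IL-6 these shares were 19.8% and 18.8% in WT and 16.4% and 9.49% in labelled cultures. They stand beside the counts of each class here and below, all on the TMM scale. Ndufs1, the large iron-sulfur subunit that passes on electrons taken from NADH, was at 82.8, 84.1 and 86.1 CPM in WT GM-CSF libraries, at 72.6, 73.7 and 75.6 with IL-6 and at 39.3, 42.3 and 39.6 with EMT6 medium. The 3 groups did not overlap, and the log2 fold changes were -0.19 (SE 0.05, adjusted p = 0.00278) with IL-6 and -1.07 (SE 0.05, adjusted p = 2.6e-22) with EMT6 medium, the latter being -0.57 with library sizes alone. Ndufa9, an accessory subunit near the ubiquinone site, changed by -1.11 in WT and -1.50 in labelled cultures with EMT6 medium, and fell with library sizes alone in both.

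Ndufb3, a small accessory subunit of the membrane arm, showed another pattern. It stood at 45.2, 39.8 and 49.1 CPM in WT GM-CSF libraries, at 27.6, 28.6 and 27.2 with WT IL-6 and at 26.5, 32.6 and 27.7 in GM-CSF libraries labelled Cysltr1-/-. With IL-6 in labelled cultures it was at 27.8, 27.9 and 30.5 CPM, a log2 fold change of -0.01 that did not pass (adjusted p = 0.937). The WT GM-CSF group was thus above all others without EMT6 medium. Before TMM scaling, the mean CPM of Ndufb3 was 37.6 in WT GM-CSF, 40.1 in WT EMT6-medium and 38.2 in labelled EMT6-medium libraries. The IL-6 effect in WT was -0.70 (SE 0.07, adjusted p = 5.06e-11), the difference by label under GM-CSF was -0.63 (SE 0.07, adjusted p = 4.08e-10) and the interaction was 0.68 (SE 0.10, adjusted p = 3.7e-06). Ndufb2, a further membrane-arm subunit, was among the few members that rose with EMT6 medium, from 7.48, 5.98 and 8.00 CPM to 9.82, 9.90 and 8.97 in WT cultures (log2 fold change 0.39, SE 0.11, adjusted p = 0.00112). In labelled cultures it went from 7.63, 7.89 and 8.05 to 12.8, 14.8 and 12.9 (log2 fold change 0.78, SE 0.10, adjusted p = 7.82e-09). Both rises were also called with library sizes alone, but the rise in WT was lost with DESeq2 (adjusted p = 0.075), without WT GM-CSF replicate 2 (adjusted p = 0.164) and without WT EMT6-medium replicate 1 (adjusted p = 0.0822). Ndufb8, whose protein is often blotted as a marker of assembled complex I, fell from 79.2, 79.8 and 88.6 CPM to 55.1, 51.3 and 53.0 in WT and from 82.7, 82.8 and 90.9 to 46.0, 42.0 and 42.9 in labelled cultures. Its interaction term was -0.33 (SE 0.08, adjusted p = 0.002), and its fall with EMT6 medium was -0.14 in WT and -0.35 in labelled cultures with library sizes alone.

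Of the 8 complex I assembly factors, 5 fell in WT and 6 in labelled cultures with EMT6 medium, and 3 fell with IL-6 in each. With EMT6 medium these counts are near the 58.4% and 56% of genes at 5 CPM that were lower, so no class result is read from them. Ndufaf4, a factor of early complex I assembly, was at 9.86, 10.1 and 9.79 CPM in WT GM-CSF libraries and at 18.6, 20.8 and 19.6 in those labelled Cysltr1-/-, with no overlap (log2 difference 0.99, SE 0.09, adjusted p = 1.02e-12). With IL-6 the difference by label was 0.64 (SE 0.09, adjusted p = 3.34e-07). With EMT6 medium it was at 4.11, 5.01 and 4.56 in WT and 3.57, 4.34 and 4.39 in labelled libraries, where the expected background made up over 50% of its CPM in the latter. The interaction with EMT6 medium was -1.15 (SE 0.17, adjusted p = 4.29e-07). Ndufaf6 was also higher by label under GM-CSF, at 8.07, 8.17 and 9.29 CPM against 5.88, 6.30 and 4.71 (log2 difference 0.61, adjusted p = 0.000157). Ndufaf2, at 4.77, 4.83 and 4.88 CPM with EMT6 medium in WT and 3.13, 3.52 and 3.21 in labelled cultures, shares 65.6% of its exonic bases with B230220B15Rik, so its reads cannot be assigned with certainty.

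Complex II, the succinate dehydrogenase that also works in the citric acid cycle, has 4 genes. On the TMM scale all 4 fell with EMT6 medium in both cultures. For Sdhd this rests on the scaling. Before TMM scaling its mean CPM was 159 with GM-CSF and 186 with EMT6 medium in WT, and 134 and 191 in labelled cultures. Sdha, its flavoprotein, was at 239, 243 and 236 CPM in WT GM-CSF libraries, at 227, 236 and 226 with IL-6 and at 109, 102 and 109 with EMT6 medium. IL-6 changed it by -0.06, which did not pass (adjusted p = 0.463), and EMT6 medium by -1.17 (SE 0.05, adjusted p = 2.4e-24). In labelled cultures it went from 237, 240 and 252 to 83.1, 78.6 and 71.9 with EMT6 medium (log2 fold change -1.64, SE 0.05, adjusted p = 2.44e-29). All labelled EMT6-medium libraries were under all WT ones, and the interaction was -0.47 (SE 0.07, adjusted p = 1.15e-06). Sdha fell in both cultures with library sizes alone. Sdhb, the iron-sulfur subunit, went from 107, 105 and 122 CPM to 84.0, 85.6 and 79.6 in WT and from 111, 110 and 120 to 57.0, 55.7 and 58.6 in labelled cultures. Its interaction was -0.56 (SE 0.08, adjusted p = 2.1e-07), and with library sizes alone it changed by +0.07 in WT and -0.37 in labelled cultures. Sdhc and Sdhd, the membrane anchors, were lower by label under GM-CSF, by -0.31 (adjusted p = 1.46e-06) and -0.36 (adjusted p = 3.23e-08) on the log2 scale.

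Complex III, the cytochrome bc1 complex, held members that moved unlike each other: 6 of 8 fell with IL-6 in each culture, and with EMT6 medium 6 fell in WT while 7 fell and 1 rose in labelled cultures. Uqcrc1, a core subunit, fell with EMT6 medium by -1.09 (SE 0.05, adjusted p = 2.11e-24) in WT and -1.36 in labelled cultures, and Uqcrfs1, the Rieske iron-sulfur protein, by -0.89 and -1.13, with both also called lower with library sizes alone. Uqcrh, the hinge protein that docks cytochrome c1, stood at 149, 129 and 170 CPM in WT GM-CSF libraries, at 83.6, 82.9 and 79.7 with IL-6 and at 150, 161 and 144 with EMT6 medium. In the libraries labelled Cysltr1-/- it stood at 79.5, 80.1 and 86.9, then 63.4, 66.5 and 68.3, then 136, 134 and 137. GM-CSF libraries by label did not overlap, and EMT6-medium libraries of both labels lay within 134 to 161. The difference by label under GM-CSF was -0.87 (SE 0.06, adjusted p = 1.14e-15), and IL-6 changed it by -0.87 in WT (SE 0.06, adjusted p = 2.11e-15) and by -0.31 in labelled cultures (SE 0.06, adjusted p = 0.000342). EMT6 medium changed it by 0.01 in WT (adjusted p = 0.83; 0.51 with library sizes alone, which was called) and by 0.72 in labelled cultures (SE 0.06, adjusted p = 7.8e-14). Its interaction terms were 0.56 for IL-6 (SE 0.09, adjusted p = 1.79e-05) and 0.71 for EMT6 medium (SE 0.09, adjusted p = 1.33e-08).

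Uqcrq, the ubiquinone-binding accessory subunit, went the other way by label. It was at 136, 120 and 140 CPM in WT and 171, 181 and 188 in labelled GM-CSF libraries (log2 difference 0.44, SE 0.06, adjusted p = 2.02e-08). With EMT6 medium it was at 117, 121 and 108 in WT and 92.7, 109 and 104 in labelled libraries, and the interaction was -0.62 (SE 0.08, adjusted p = 7.3e-08). Uqcr11, a small accessory subunit, was at 37.4, 36.3 and 39.7 CPM in WT GM-CSF and 22.9, 23.4 and 22.8 in WT IL-6 libraries, and its IL-6 interaction was 0.40 (SE 0.10, adjusted p = 0.00492).

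Complex IV, the cytochrome c oxidase, had 14 of 16 nuclear members lower and 1 higher with IL-6 in WT cultures (median -0.53, the lowest of the nuclear classes), and 10 lower in labelled ones. With EMT6 medium its median was the nearest to 0 of the nuclear classes, at -0.27 in WT and -0.35 in labelled cultures, with 12 lower and 1 higher, and 11 lower and 2 higher. Cox4i1, the ubiquitous form of subunit IV, was at 480, 435 and 523 CPM in WT GM-CSF libraries, at 359, 364 and 360 with IL-6 and at 296, 305 and 274 with EMT6 medium. The 3 groups were apart, with log2 fold changes of -0.41 (SE 0.06, adjusted p = 9.51e-08) and -0.72 (SE 0.06, adjusted p = 2.38e-15), the latter being -0.22 with library sizes alone. Cox5a, a nuclear subunit on the matrix side, fell by -0.63 with IL-6 (SE 0.05, adjusted p = 2.82e-13) and -0.77 with EMT6 medium in WT cultures. Cox6a1, Cox7a2, Cox8a and Ndufa4 fell with IL-6 in WT by -0.52, -0.53, -0.35 and -0.58. With EMT6 medium they changed by -0.20, -0.24, -0.14 and -0.10 in WT, the last not called (adjusted p = 0.142). The call of Cox8a was lost without GM-CSF replicate 1 or EMT6-medium replicate 3, and with library sizes alone all 4 changed sign, to 0.30, 0.25, 0.36 and 0.39.

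Cox6b1, which links the 2 monomers of the oxidase, shared the pattern of Ndufb3. It stood at 190, 171 and 214 CPM in WT GM-CSF libraries, at 116, 117 and 112 with WT IL-6, and at 129, 129 and 142 under GM-CSF and 117, 113 and 115 with IL-6 in labelled libraries. Before TMM scaling, its mean CPM was 161 in WT GM-CSF, 174 in WT EMT6-medium and 175 in labelled EMT6-medium libraries. By normalised CPM, WT GM-CSF was again above all others without EMT6 medium. IL-6 changed it by -0.74 in WT (SE 0.06, adjusted p = 4.24e-13) and -0.21 in labelled cultures (adjusted p = 0.0167, but 0.158, 0.085 and 0.0511 without labelled GM-CSF replicate 3 and IL-6 replicates 2 and 3), and the interaction was 0.53 (SE 0.09, adjusted p = 4e-05). Cox6b2, a paralogue best known from testis, was low, at 8.02, 8.50 and 8.26 CPM in WT GM-CSF, 3.44, 4.25 and 3.48 with IL-6 and 11.7, 11.9 and 11.2 with EMT6 medium. In labelled libraries it was at 4.66, 5.49 and 5.26, then 3.92, 4.71 and 4.49, then 12.1, 13.9 and 13.1. It rose with EMT6 medium by 0.49 (SE 0.10, adjusted p = 3.65e-05) and 1.34 (SE 0.11, adjusted p = 1.29e-14), also with library sizes alone, and its interaction terms were 0.92 for IL-6 (SE 0.17, adjusted p = 0.000207) and 0.85 for EMT6 medium (SE 0.15, adjusted p = 2.02e-05).

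Among the tissue-type isoforms, Cox6a2, the heart and skeletal muscle form of subunit VIa, had the largest differences. It was at 7.24, 6.36 and 7.16 CPM in WT and 16.8, 15.6 and 17.8 in labelled GM-CSF libraries (log2 difference 1.26, SE 0.09, adjusted p = 5.54e-15). With EMT6 medium it was at 1.18, 1.22 and 1.22 in WT and 1.70, 1.42 and 1.12 in labelled libraries, so that the groups by label overlapped. The log2 fold changes with EMT6 medium were -2.52 (SE 0.16, adjusted p = 7.22e-19) and -3.53 (SE 0.14, adjusted p = 4.52e-26), with an interaction of -1.01 (SE 0.25, adjusted p = 0.00177). It was also called lower in both with library sizes alone. It was the 1 member with an IL-6 interaction under 0 (-0.50, SE 0.13, adjusted p = 0.0137, but 0.0602 without labelled GM-CSF replicate 3), and 10.3% of its exonic bases overlap Itgad, an integrin gene. Cox4i2, the hypoxia-associated form of subunit IV, was the 1 member called higher with IL-6 in WT cultures, at 5.89, 7.57 and 6.71 CPM against 5.78, 4.79 and 5.15 (log2 fold change 0.35, SE 0.13, adjusted p = 0.0445). That call was lost with DESeq2, with library sizes alone and without any of 4 of the 6 WT libraries (GM-CSF replicate 2 or 3, or IL-6 replicate 2 or 3). Cox7a1, the muscle form of subunit VIIa, reached the limit through the WT EMT6-medium group only, where its mean CPM before TMM scaling was 5.20.

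Complex V, the ATP synthase, had 14 of 17 members lower with IL-6 in WT cultures (median -0.34) and 10 in labelled ones, and 15 lower with EMT6 medium in WT (median -0.72) and 13 lower and 1 higher in labelled cultures (median -0.96). Atp5b, the catalytic beta subunit and the most highly counted nuclear member, was at 999, 1001 and 1021 CPM in WT GM-CSF libraries, at 906, 963 and 914 with IL-6 and at 417, 410 and 387 with EMT6 medium. IL-6 changed it by -0.12 (adjusted p = 0.0452, and 0.0812 to 0.195 without GM-CSF replicate 1 or 3 or IL-6 replicate 1 or 3, and 0.0575 with a replicate block) and EMT6 medium by -1.32 (SE 0.04, adjusted p = 3.22e-28). In labelled cultures it went from 1083, 1088 and 1123 to 304, 315 and 311 with EMT6 medium, every library under the WT ones, with a log2 fold change of -1.83 (SE 0.05, adjusted p = 2.67e-33) and an interaction of -0.51 (SE 0.06, adjusted p = 1.12e-08). The alpha subunit gene Atp5a1 changed by -1.22 and -1.53. Atp5g1, which encodes the c subunit of the membrane ring, went from 44.6, 39.1 and 47.7 CPM to 13.3, 12.3 and 10.4 in WT (log2 fold change -1.87, SE 0.08, adjusted p = 1.04e-24) and from 45.2, 46.4 and 50.8 to 12.4, 11.7 and 11.1 in labelled cultures (log2 fold change -2.00, SE 0.08, adjusted p = 2.74e-25). Atp5a1, Atp5b and Atp5g1 were lower in both cultures with library sizes alone too. Atp5g2, a second gene for the same ring protein, fell by -0.81 and -1.25 and was 0.80 lower by label with EMT6 medium (log2 difference -0.80, SE 0.10, adjusted p = 1.97e-08). Atp5l, the membrane subunit g, was the exception: it went from 16.1, 16.4 and 18.6 CPM to 12.6, 14.9 and 12.9 in WT and from 14.0, 16.7 and 16.7 to 16.9, 17.7 and 21.1 in labelled cultures. The latter change of 0.23 (adjusted p = 0.0194) was not called without any 1 of its 6 libraries or with DESeq2. The gene had an interaction of 0.59 (SE 0.13, adjusted p = 0.000502), and its fall in WT turned to +0.14 with library sizes alone.

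**Figure D4:**
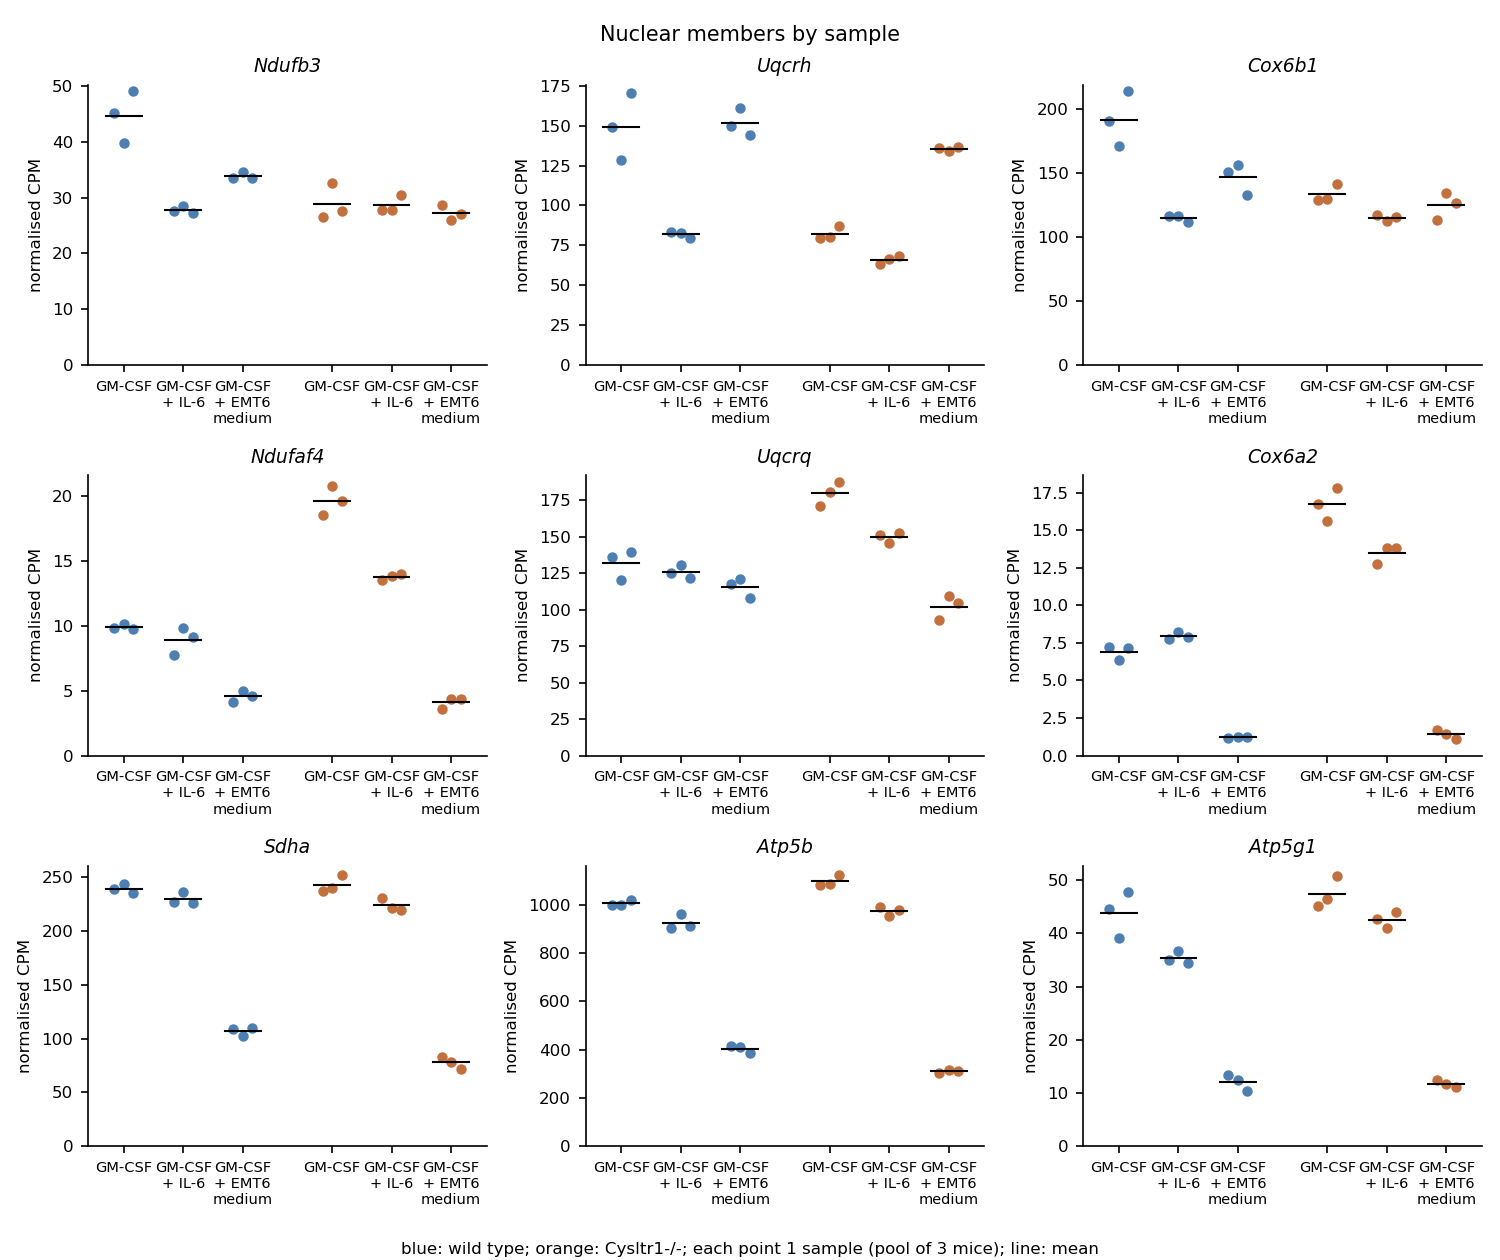
Normalised CPM of 9 nuclear members in each of the 18 samples, by group. Ndufb3, Uqcrh and Cox6b1 are highest in WT GM-CSF samples among those without EMT6 medium, Ndufaf4, Uqcrq and Cox6a2 are higher under GM-CSF in samples labelled Cysltr1-/-, and Sdha, Atp5b and Atp5g1 are low in all EMT6-medium samples.

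The 25 members with an IL-6 interaction comprised 7 of complex I, 1 of complex II, 4 of complex III, 7 of complex IV and 6 of complex V. With the exception of Cox6a2, IL-6 lowered them more, relative to GM-CSF, in WT than in labelled cultures. The comparisons share their GM-CSF libraries, so the IL-6 effect and the difference by label are not independent. Within the WT GM-CSF group, replicate 3 was the highest of 3 for 67 of 89 nuclear members and replicate 2 the lowest for 70, and these libraries held 31989342 and 19173120 gene counts, with 15.9% and 12.8% of reads in no gene. Without WT GM-CSF replicate 3 the count above 0 was 13, and it was also 13 without labelled GM-CSF replicate 2 or labelled IL-6 replicate 3. Ndufb3, Uqcrh, Cox6b1 and Cox6b2 kept an adjusted p under 0.05 in every alternative run.

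**Figure D5:**
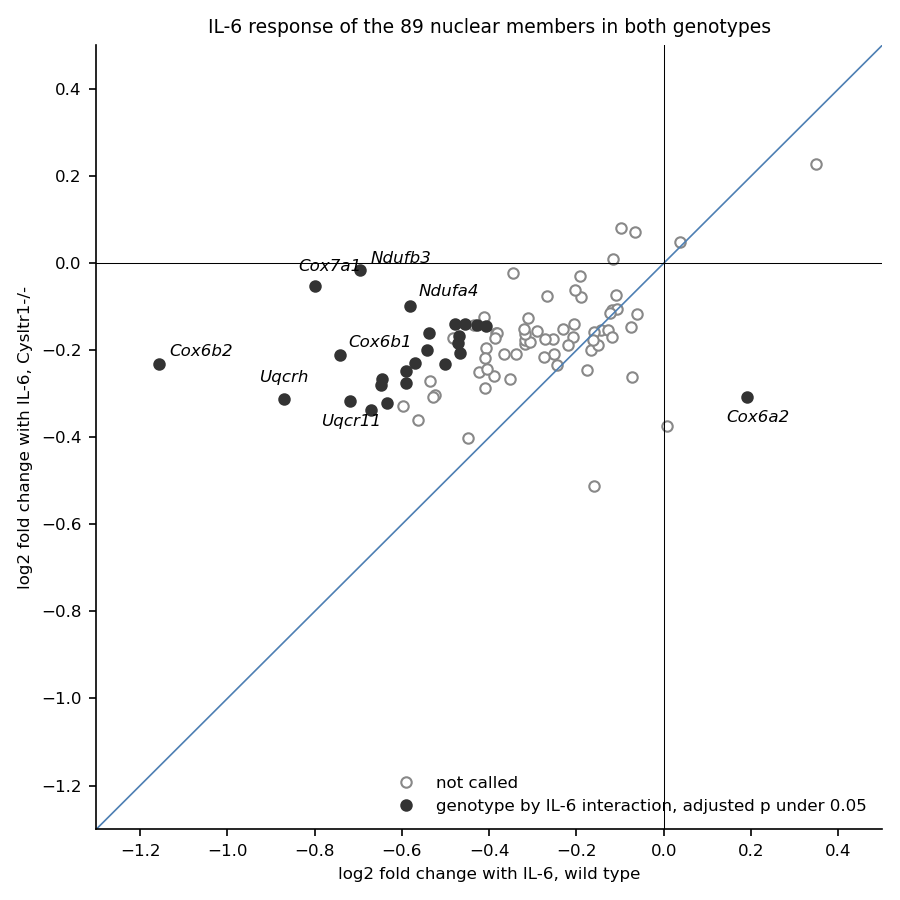
Log2 fold change with IL-6 of the 89 nuclear members in WT cultures (horizontal axis) and in cultures labelled Cysltr1-/- (vertical axis), filled where the interaction was called (25 genes), with a blue line of equal change. Uqcrh lies at -0.87 and -0.31, Cox6b1 at -0.74 and -0.21 and Ndufb3 at -0.70 and -0.01.

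Nuclear members with a short exonic length moved differently from those with a longer one. This length joins all annotated exons of a gene and is not that of a transcript. With IL-6 in WT cultures the 21 nuclear members with under 1 kb of exon had a median log2 fold change of -0.52 and the 68 longer ones -0.31, and Spearman's rho between exonic length and log2 fold change was 0.46 across the 89 genes. Across the 14436 genes at 5 CPM with a length, rho was 0.26, and the 724 genes under 1 kb had a median of -0.26. The IL-6 interaction had a rho of -0.40 across members and -0.17 across all genes, and short members had a median of 0.22 and longer ones 0.14. With EMT6 medium rho was -0.29 in WT and -0.33 in labelled cultures across members, and -0.04 and 0.01 across all genes. Genes of one library share its depth and RNA quality, so these are descriptions across genes, and the part of length in the results was not tested.

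Promoters of nuclear members were read from RefSeq (GRCm38.p6) in a window from 250 bases before to 50 after the start. A promoter was matched for 74 of 89 nuclear members. Sites were searched on both strands as exact letters: the palindromic site of nuclear respiratory factor 1 (NRF1, in capitals in Ndufaf4 below), CCGGAAG for ETS factors such as GABP, and AAGATGGC for YY1, all of them factors known to act on respiratory genes. NRF1 letters were found for 7 members (9.46%, against 1.07% of 27025 genes) and ETS letters for 18 (24.3% against 9.93%). YY1 letters were found for 11 (14.9% against 3.19%), and 32 (43.2% against 13.4%) held at least 1 site. A gene was counted if any of its starts had the letters. The 27025 genes were not limited to expressed ones, as the members are, so the excess is not particular to members. The stretches below run to the base before the start, with the matched letters in capitals. They are Uqcrh (chr4:116075071-116075190, minus strand), Cox6b1 (chr7:30626115-30626234, minus strand) and Uqcr11 (chr10:80406822-80406941, minus strand), with an ETS match and an IL-6 interaction, and Ndufaf4 (chr4:24897962-24898082, plus strand), with an NRF1 match and a higher level by label. The stretches shown were chosen because they hold a match. Atp5e, also with an IL-6 interaction, held an ETS match. Ndufa1, Ndufb3, Ndufs6, Cox5a, Cox6b2, Cox7a1, Ndufa4 and Atp5g3 had an IL-6 interaction too, but no match in the 250 bases before the start. A match is a description of these letters and not of binding, and its part in the results was not tested.
Uqcrh: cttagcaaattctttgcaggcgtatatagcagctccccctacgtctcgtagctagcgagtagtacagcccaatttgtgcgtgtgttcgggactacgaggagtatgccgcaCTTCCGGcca
Cox6b1: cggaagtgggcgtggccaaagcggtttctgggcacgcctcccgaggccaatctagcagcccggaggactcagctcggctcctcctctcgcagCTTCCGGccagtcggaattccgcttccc
Uqcr11: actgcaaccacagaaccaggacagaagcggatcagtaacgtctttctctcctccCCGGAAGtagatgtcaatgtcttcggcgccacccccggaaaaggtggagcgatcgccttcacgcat
Ndufaf4: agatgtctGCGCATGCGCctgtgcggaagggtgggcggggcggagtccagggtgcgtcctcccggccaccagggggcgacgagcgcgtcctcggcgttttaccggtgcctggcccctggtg

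Genes that serve the respiratory chain without carrying these names were followed in 6 lists. With EMT6 medium in WT cultures 18 of 21 citric acid cycle genes fell and 2 rose, 21 of 25 genes of mitochondrial DNA expression fell and 2 rose, 34 of 43 assembly factors outside the symbol rule fell and 3 rose, 16 of 19 electron carrier genes fell and 3 rose, and 20 of 21 genes of carriers and import fell. Of 11 regulators 4 fell and 2 rose. Of all genes tested 34.5% were lower and 46.8% higher in this comparison, or 58.4% and 31.7% at 5 CPM. In labelled cultures the counts that fell were 19, 22, 35, 15, 21 and 5 in the same order, and those that rose were 1, 1, 4, 1, 0 and 4. There 32.9% of genes were lower and 54.3% higher (56% and 35.1% at 5 CPM). These list counts are on the TMM scale and were not recomputed with library sizes alone, which shifts all genes upward in these comparisons as given above. Lrpprc, which stabilises mitochondrial mRNAs, changed by -2.72 (SE 0.07, adjusted p = 1.54e-32) in WT and -3.08 in labelled cultures. Ucp2, an inner membrane carrier, changed by -2.31 and -2.57, and Slc25a5, an ADP/ATP exchanger, by -1.80 and -2.04. Some list genes rose: Coq8a by 2.08 and 1.82, and Sdhaf1 by 1.90 and 1.79. The regulator Ppargc1a rose by 2.34 in labelled cultures (SE 0.17, adjusted p = 2.07e-16). Levels and expected background were not worked out for these list genes. The part of background reads in their rises was not tested. Acod1, which makes itaconate from a citric acid cycle intermediate in activated macrophages, rose by 3.12 in WT (SE 0.06, adjusted p = 2.11e-37) and by 1.09 in labelled cultures, an interaction of -2.03 (adjusted p = 7.49e-23). With IL-6 in WT cultures 12 of 21 citric acid cycle genes fell and 0 rose, and 12 of 43 assembly factors fell and 3 rose. In mitochondrial DNA expression 1 fell and 3 rose. Of all genes 11.3% were lower and 10.4% higher there (19.8% and 18.8% at 5 CPM). Under GM-CSF 11 of the 25 genes of mitochondrial DNA expression were higher by label and 2 lower, beside 10.1% of genes higher and 17.2% lower (16.1% and 30.8% at 5 CPM). Hspa9, the mitochondrial Hsp70 of protein import, was 1.29 higher by label on the log2 scale (SE 0.05, adjusted p = 1.38e-25) and rose with IL-6 in WT by 0.94 (SE 0.05, adjusted p = 1.35e-20), with an interaction of -0.95 (SE 0.07, adjusted p = 1.07e-14). Pprc1, a coactivator related to PGC-1, was 0.75 higher by label under GM-CSF (SE 0.06, adjusted p = 1.09e-14), and its IL-6 interaction was -0.47 (adjusted p = 6.45e-05).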

How the data were processed

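Per the submitters' processing notes, reads were aligned with HISAT2 2.1.0 to mm10 and counted with HTSeq 0.13.5, and DESeq2 1.34.0 is also named. The authors deposited raw counts per gene for each sample. The annotation and the strand setting are not given in the sources used here, and the labels' protocols name a poly(A) kit. IDs were matched to GENCODE M21, and 86 of 55536 had no symbol there. Spike-in entries, numbered entries (0.0399% to 0.446% of counts), HTSeq's 5 summary lines stayed out of library sizes and tests.

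Genes were filtered with filterByExpr (28334 left) and tested with edgeR 4.0.16 (R 4.3.3, limma 3.58.1): TMM scaling, quasi-likelihood F-tests in 1 fit of all 6 groups without a replicate term, 9 contrasts, Benjamini-Hochberg adjustment over all genes and a threshold of 0.05. Normalised CPM uses TMM-scaled library sizes, and RPKM divides it by exonic length, the union of all annotated exons of a gene. DESeq2 1.42.0 was an alternative. Others were other scalings and filters, only the groups compared, a replicate block, background subtraction from reads in no gene, and leaving out each sample. Members were compared by their counts of calls and medians and no test was made over the list. The test was tried on simulated counts with known changes. Figures used Python 3.11.15, pandas 2.3.3 and matplotlib 3.10.9.

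The members and lists were chosen with earlier results of these data known. Named in the text are, per comparison and class, up to 3 members with the largest change that passed the test in groups without overlap, a fixed set of core subunits and isoform genes, the mitochondrial genes, members near the limit, and list genes with the smallest p. Other pairs of a gene and a comparison in the text were chosen after their values were seen.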

Additional observations from a re-analysis of the deposited data

Results flagged for a closer look

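The response to IL-6 differed by label, by the interaction term of the edgeR quasi-likelihood fit (adjusted p under 0.05), for Ndufa1 (0.38), Ndufb3 (0.68), Ndufs6 (0.34), Sdhc (0.28), Uqcr11 (0.40), Uqcrb (0.38), Uqcrh (0.56), Cox5a (0.31), Cox6b1 (0.53), Cox6b2 (0.92), Cox7a1 (0.75), Ndufa4 (0.48), Atp5e (0.34), Atp5g3 (0.34) and Atp5mpl (0.37) above 0, on the log2 scale, and for Cox6a2 (-0.50) under 0. Values above 0 mean that the log2 fold change against GM-CSF was higher in the libraries labelled Cysltr1-/-.

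The response to EMT6 medium differed by label in the same way above 0 for Uqcrh (0.71), Cox5a (0.21), Cox6b1 (0.29), Cox6b2 (0.85) and Atp5l (0.59). It differed under 0 for the nuclear genes Ndufa10 (-0.51), Ndufa12 (-0.58), Ndufb4 (-0.47), Ndufb8 (-0.33), Ndufaf2 (-0.82), Ndufaf4 (-1.15), Sdha (-0.47), Sdhb (-0.56), Uqcrc1 (-0.27), Uqcrc2 (-0.34), Uqcrfs1 (-0.24), Uqcrq (-0.62), Cox6a2 (-1.01), Cox7a2l (-0.19), Atp5a1 (-0.31), Atp5b (-0.51) and Atp5g2 (-0.44), and for the mitochondrial genes mt-Atp6 (-0.48), mt-Co1 (-0.49), mt-Nd1 (-0.45), mt-Nd4 (-0.65), mt-Nd5 (-0.57) and mt-Nd6 (-0.54). In these libraries the share of reads in no gene was also highest, at 36.2% in WT and 50.2% in labelled cultures, and its part in these differences was not tested.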

How the results depend on the processing

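Counts are given as members called higher and lower. With library sizes alone as the scaling, the counts were 26 and 49 for EMT6 medium in WT cultures, 31 and 50 in those labelled Cysltr1-/-, 27 and 25 for the label under GM-CSF, 60 and 1 with IL-6, 12 and 21 with EMT6 medium, and 16 and 22 for the EMT6 interaction. The call of Cox4i2 with IL-6 in WT was lost there and with DESeq2, leaving 0 higher. Higher calls with DESeq2 were 1 and 3 with EMT6 medium (WT, labelled), 8 and 3 by label with IL-6 and with EMT6 medium, and 3 for the EMT6 interaction, and the IL-6 interaction had 13 and 2. DESeq2 size factors in edgeR gave 3 higher with EMT6 medium in labelled cultures, 10 and 2 for the IL-6 interaction and 3 higher for the EMT6 interaction. A filter at 5 CPM gave 9 and 15 higher with EMT6 medium, 13 higher by label under GM-CSF, 34 and 3 with IL-6, and 11 higher for the EMT6 interaction. Without a filter on low counts there were 3 higher with EMT6 medium in labelled cultures, 23 and 27 by label under GM-CSF, 24 and 7 with IL-6, 3 under 0 for the IL-6 interaction, and 3 and 65 for the EMT6 interaction. With the background subtracted there were 6 and 14 higher with EMT6 medium, 13 higher by label under GM-CSF, 27 and 2 with IL-6, and 45 lower with EMT6 medium by label. Fitting only the groups compared gave 3 higher with EMT6 medium in labelled cultures and 40 higher by label with IL-6, where 28 were higher without the EMT6-medium libraries. Scaling without mitochondrial genes moved none of these counts by over 1.5 times. The cause of these differences was not tested.

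Chosen after seeing the data, the log2 ratio of mitochondrial to nuclear counts without mt-Co1 was -2.35 and -2.55 with EMT6 medium (WT, labelled), -0.16 with IL-6 in labelled cultures, 0.13 and 0.062 by label with IL-6 and with EMT6 medium, and -0.20 for the EMT6 interaction. With only genes under 10% shared windows the same 6 values were -2.40, -2.56, -0.16, 0.14, 0.11 and -0.16.

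Signs changed with library sizes alone for EMT6 medium in WT cultures to 0.48 (Cox4i2), 0.30 (Cox6a1), 0.25 (Cox7a2), 0.33 (Cox7a2l), 0.36 (Cox8a) and 0.39 (Ndufa4), and in labelled cultures to 0.39 (Cox6a1), 0.52 (Cox7a2), 0.26 (Cox7a2l), 0.27 (Cox8a) and 0.47 (Ndufa4). By label they changed to 0.14 (Cox5a) and 0.22 (Ndufs1) with EMT6 medium and to 0.11 (Sdha) with IL-6. The filter at 5 CPM gave 0.10 (Cox7a2l) and 0.16 (Ndufa4) in WT and 0.22 (Cox7a2) and 0.17 (Ndufa4) in labelled cultures with EMT6 medium, and subtracting the background gave 0.21 (Cox7a2).

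Leaving out 1 library at a time gave 0 to 1 higher and 69 to 80 lower for IL-6 in WT, 1 to 3 and 82 to 94 for EMT6 medium in WT, 0 and 28 to 49 for IL-6 in labelled cultures, 3 and 90 to 93 for EMT6 medium there, 4 to 8 and 32 to 50 by label under GM-CSF, 8 to 15 and 5 to 9 with IL-6, 2 to 5 and 62 to 79 with EMT6 medium, 13 to 34 and 0 to 2 for the IL-6 interaction, and 3 to 8 and 32 to 48 for the EMT6 interaction. The lowest values came without labelled GM-CSF replicate 3 for IL-6 in labelled cultures (28), without WT GM-CSF replicate 2 for higher calls by label (4), without WT IL-6 replicate 1 or labelled IL-6 replicate 3 for higher calls by label with IL-6 (8), and without WT IL-6 replicate 2 for lower calls there (5). The log2 ratio ranged from -0.03 to 0.16, -0.93 to -0.74, -0.12 to -0.03 and -1.22 to -1.08 over the 4 treatment comparisons (IL-6 and EMT6 medium in WT, then in labelled cultures), from 0.10 to 0.28, 0.0021 to 0.099 and -0.20 to -0.05 by label, and from -0.23 to -0.05 and -0.42 to -0.24 for the interactions.

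A replicate block gave 9 and 42 by label under GM-CSF, 16 and 12 with IL-6, 26 and 1 for the IL-6 interaction, and the other counts as they stand. Same-numbered libraries did not pair throughout: 7 of 45 pairs correlated over 0.1, the range was -0.336 to 0.334, and 17 were the best match by number. Between WT GM-CSF and WT IL-6 every same-numbered pair was the best match (0.062, 0.168 and 0.334). The same held between labelled IL-6 and EMT6-medium libraries (0.079, 0.015 and 0.063). With 3 replicates per group these correlations cannot settle whether the numbers pair samples. Poly(A) selection, uncounted multi-mapped reads and an unstated strand limit the mitochondrial values.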
